A study of Mus musculus with 6 samples.

Results

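The myosin heavy and light chain genes of heart muscle and of its non-muscle cytoskeleton were followed in cultured neonatal mouse cardiomyocytes. The 10 genes were Myh6, Myh7, Myh7b, Myh9, Myh10, Myl2, Myl3, Myl4, Myl6 and Myl7, chosen by name as atrial, ventricular, fetal and non-muscle forms. Each of the 10 had 1 row of its own on the array, so all were measured, among 22180 genes in all. The cells were isolated from C57BL/6 mouse hearts at 1 day of age and enriched for cardiomyocytes by letting faster-attaching cells settle first. All samples were then kept under hypoxia for 12 h, at 2% oxygen, 5% CO2 and 93% nitrogen. The hormone fibroblast growth factor 21 (FGF21) was present at 1 µg/ml in 3 samples and absent from 3 control samples. The comparison asks which genes respond to FGF21 under low oxygen. No sample was kept at normal oxygen, so the response to hypoxia itself was not analysed here. The titles call the samples biological replicates without saying whether they came from separate litters or cultures, so the spread behind each p-value may be technical in part.

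Myosin II is a motor built from a pair of heavy chains, which split ATP and pull on actin, and from essential and regulatory light chains that wrap around the lever arm of each head. In the sarcomere the heavy chains form the thick filament, and the heart uses the fast alpha form (Myh6) and the slower beta form (Myh7). In mice the beta form is typical of the fetal ventricle and the alpha form of the adult heart, and a return of Myh7 is a classical sign of hypertrophy. Outside the sarcomere, Myh9 and Myh10 with the light chain Myl6 and the regulatory chains Myl12a and Myl12b form non-muscle myosin II, which tenses the cell cortex and divides the cell.

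The 3 sarcomeric heavy chain genes also carry microRNAs, which lie within the spans of their host genes and are known for tuning the choice between the heavy chains. Their mature sequences, from RefSeq on GRCm38.p6, are shown because the hosts are among the genes compared. Capitals mark the seed, bases 2 to 8, which pairs with target transcripts.
mmu-miR-208a-3p: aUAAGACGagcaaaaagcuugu
mmu-miR-208b-3p: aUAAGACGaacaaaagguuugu
mmu-miR-499-5p: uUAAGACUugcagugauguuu
The first is encoded within Myh6 (chr14:54949072-54949093, minus strand), the next within Myh7 (chr14:54975710-54975731, minus strand) and the last within Myh7b (chr2:155622893-155622913, plus strand). The miR-208a and miR-208b sequences have the same seed and differ at 3 positions elsewhere. The seed of miR-499 differs from theirs at 1 position, the last.

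Promoter windows are given for the gene with the largest difference between the groups, Myl6, and for the pair of cardiac heavy chains. Each window runs from 250 bases before to 50 bases after a RefSeq gene start on GRCm38.p6. In the Myl6 window (chr10:128493837-128494136, minus strand) capitals mark a cyclic AMP response element, TGACGTCA, 14 to 21 bases before the start. In the windows of Myh6 (chr14:54966558-54966857, minus strand) and Myh7 (chr14:54994577-54994876, minus strand) they mark an M-CAT motif, CATTCC, which reads as its reverse complement here and is the site known for TEAD factors. It lies 201 to 206 bases before the start in Myh6 and 196 to 201 in Myh7.
Myl6: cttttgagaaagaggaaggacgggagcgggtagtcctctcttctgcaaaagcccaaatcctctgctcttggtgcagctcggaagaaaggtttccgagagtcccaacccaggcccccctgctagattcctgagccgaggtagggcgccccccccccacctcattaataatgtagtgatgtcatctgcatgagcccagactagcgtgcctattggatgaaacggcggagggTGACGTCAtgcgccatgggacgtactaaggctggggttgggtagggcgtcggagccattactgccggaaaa
Myh6: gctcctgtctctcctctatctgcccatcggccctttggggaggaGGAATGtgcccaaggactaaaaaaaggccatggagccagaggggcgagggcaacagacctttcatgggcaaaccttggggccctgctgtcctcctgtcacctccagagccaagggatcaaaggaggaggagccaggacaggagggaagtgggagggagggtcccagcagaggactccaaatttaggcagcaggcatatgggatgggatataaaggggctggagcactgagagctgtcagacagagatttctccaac
Myh7: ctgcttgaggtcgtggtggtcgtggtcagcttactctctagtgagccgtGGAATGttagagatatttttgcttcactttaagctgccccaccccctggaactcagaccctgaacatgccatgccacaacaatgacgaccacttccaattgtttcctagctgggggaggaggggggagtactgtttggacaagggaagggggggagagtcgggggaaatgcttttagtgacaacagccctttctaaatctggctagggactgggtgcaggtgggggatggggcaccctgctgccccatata
Searched on both strands, the M-CAT letters were in windows of 5 of the 10 genes (Myh6, Myh7, Myh10, Myl3 and Myl7), against 14.7% of all 32851 windows. The cyclic AMP response element was in 1 of the 10, Myl6, against 1.79% of all windows. A CArG box, the motif known for serum response factor, was in windows of Myl3, Myl6 and Myl7, against 1.63% of all windows. Myl6, Myh7 and Myl2 have 2 windows each in the table, and the CArG box of Myl6 lies in the window not printed here. The shares count windows, so a gene with several windows had more chances to hold a motif. These matches describe the letters only.

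Array medians lay close together, but every FGF21 median was below every control median. They were 5.76 to 5.79 on the log2 scale with FGF21 and 5.81 to 5.83 in controls. Over all genes the median difference, FGF21 minus control, was -0.01, and over the 11090 genes at or above the median level it was 0.04. All 10 cardiomyocyte markers written for the check, among them Tnnt2 and Actc1, were above every array median in each array. All 10 fibroblast markers, all 8 smooth muscle markers and 5 of 8 skeletal muscle markers were too, so this position alone does not tell which cells were present. The mean level of the endothelial markers was 7.08 to 7.34 with FGF21 and 7.44 to 7.64 in controls, and 9 of its 10 genes were lower with FGF21. The mean levels of the cardiomyocyte, fibroblast and smooth muscle lists overlapped between groups, at 11.61 to 11.62 against 11.61 to 11.76, 10.27 to 10.34 against 10.28 to 10.35 and 9.16 to 9.20 against 9.13 to 9.23. Leukocyte means overlapped too, at 7.45 to 7.64 against 7.48 to 7.53, with 5 of 8 genes higher with FGF21 and 3 lower. Among these Ptprc differed by 0.20 and Cd68 by -0.20 on the log2 scale. Control replicate 1 stood apart in the cardiomyocyte list, at 11.76, against 11.61 to 11.62 in the other 5 arrays. In whole-culture RNA, fewer cells of a type and less RNA per cell cannot be told apart.

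No myosin gene passed limma's test adjusted over all genes at 0.05, where 0.0% of the 22180 genes did (0 of them). At an unadjusted p under 0.05, limma had 1 of the 10 members, Myl6, which was higher, against 11.7% of all genes in either direction and 6.59% with higher values. That count was 2 without FGF21 replicate 3, which added Myh7, or without control replicate 2, which added Myh10. The FGF21 and control arrays did not overlap for 3 members, Myl6, Myh9 and Myh10, all higher with FGF21, against 8.99% of all genes in that direction, 8.14% in the other and 17.1% in either. By sign alone, 6 of the 10 were higher with FGF21, against 47.8% of all genes. The median log2 difference, FGF21 minus control, was 0.08 over the 10 members, -0.01 over all genes and 0.04 over the brighter genes, where 9 of the 10 members (all but Myl6) lie. Of the unadjusted calls among those brighter genes, 75.2% were higher with FGF21. The 7 sarcomeric genes had differences from -0.07 to 0.10 with a median of -0.00, and the 3 non-muscle genes from 0.09 to 0.54 with a median of 0.14. The 7 and the 3 were set apart by known function with earlier results of these data in view, so their contrast is a description.

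**Figure D1:**
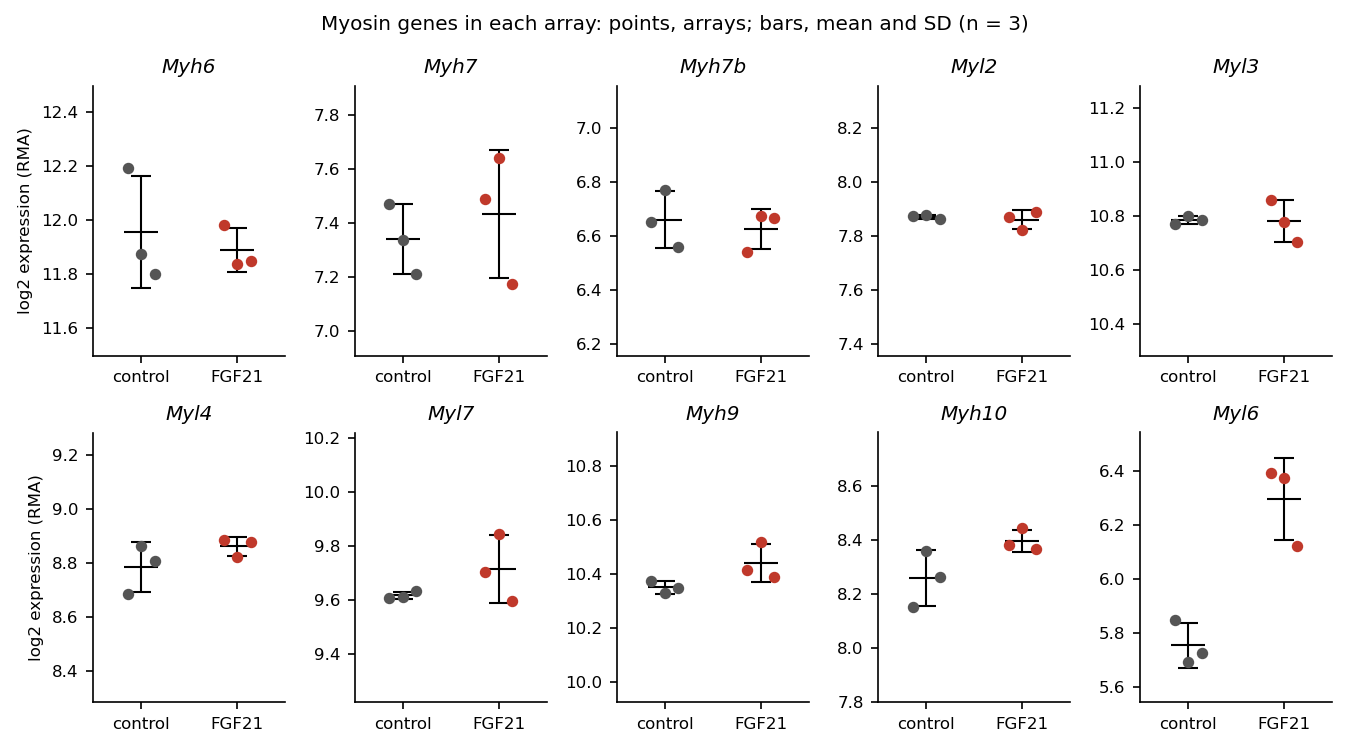
Log2 expression (RMA) of the 10 myosin genes in control arrays (grey) and FGF21 arrays (red), with 1 point per array and the mean and SD of 3 arrays per group. Every panel spans 1 log2 unit. The groups are apart by a visible margin in Myl6 alone (gap 0.27), overlap in the 7 sarcomeric genes in the first 7 panels, and are apart by 0.0132 and 0.0075 in Myh9 and Myh10.

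Myh6 encodes the alpha heavy chain, the main motor of the adult mouse heart. It read 11.98, 11.84 and 11.85 with FGF21 and 12.19, 11.88 and 11.80 in controls. The highest value belonged to control replicate 1, and the other 5 arrays lay between 11.80 and 11.98, with both groups mixed. The log2 difference was -0.07 ± 0.10 (SE), with an adjusted p of limma of 0.833. Its 95% interval ran from 0.82-fold to 1.12-fold, so a rise or fall beyond these sizes lies outside it. Without control replicate 1 the sign turned, to 0.05.

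Myh7 encodes the beta heavy chain, the slow form linked with the fetal heart and with overload. Its values were 7.49, 7.64 and 7.18 with FGF21 and 7.47, 7.34 and 7.21 in controls. The FGF21 arrays held both the highest and the lowest value of the 6, and their SD of 0.237 was larger than the controls' 0.130. The difference of 0.09 ± 0.12 (SE) had an adjusted p of limma of 0.786 and an interval of 0.89-fold to 1.28-fold, the widest upward among the sarcomeric members. Leaving out FGF21 replicate 2 gave -0.0088, and leaving out FGF21 replicate 3 gave 0.22. Myh7 and Myh6 are close in sequence, and whether the probes of each tell them apart fully was not tested.

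Myh7b, the host of miR-499, encodes a slow-type heavy chain of which little protein is made in the mammalian heart. It read 6.54, 6.67 and 6.67 with FGF21 and 6.65, 6.77 and 6.56 in controls. The groups overlapped throughout, with a difference of -0.03 ± 0.08 (SE), or 0.0029 after median centring of each array, and an adjusted p of limma of 0.897. The interval ran from 0.87-fold to 1.10-fold.

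The rows for the embedded microRNA genes, which do not say which arm they read, were all below the median of their arrays. Mir208a read 3.80, 3.90 and 4.00 with FGF21 and 3.84, 3.80 and 3.98 in controls. Mir208b read 3.83, 3.74 and 3.81 against 3.83, 3.77 and 3.84, and Mir499 read 4.28, 4.11 and 4.35 against 4.46, 4.46 and 4.15. The lowest value on any array was 3.23. Mean levels were above those of 3.65% of genes for Mir208a, 2.89% for Mir208b and 9.15% for Mir499. The groups overlapped in all 3 rows. Mhrt, a long non-coding RNA transcribed from the Myh7 locus in the opposite direction, had its own row at 8.78, 8.81 and 8.90 with FGF21 and 8.9998, 8.75 and 8.91 in controls. Its groups overlapped, with a log2 difference of -0.05 ± 0.08 (SE). Whether the rows tell the strands of this locus apart is not given in the sources used here.

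Myl2 encodes the regulatory light chain of the ventricle. Its values were the tightest of the 10 genes, at 7.87, 7.82 and 7.89 with FGF21 and 7.87, 7.88 and 7.86 in controls. The SD over all 6 arrays was 0.0231. The difference was -0.01 ± 0.06 (SE), or 0.026 after median centring, with an interval of 0.91-fold to 1.09-fold and an adjusted p of limma of 0.964. With quantile normalization applied again the difference was -0.066.

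Myl3 encodes the essential light chain of the ventricle and of slow skeletal muscle. It read 10.86, 10.78 and 10.70 with FGF21 and 10.77, 10.80 and 10.78 in controls. The controls fell inside the span of the FGF21 arrays. The difference was -0.0044 ± 0.065 (SE), or 0.032 after median centring, and the interval ran from 0.90-fold to 1.10-fold (adjusted p of limma 0.987).

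Myl4 encodes the atrial essential light chain, which the ventricle also makes before birth. It read 8.88, 8.82 and 8.88 with FGF21 and 8.68, 8.86 and 8.81 in controls. Control replicate 1 was the lowest, and control replicate 2 lay within the FGF21 range. The difference was 0.08 ± 0.07 (SE), with an adjusted p of limma of 0.694 and an interval of 0.95-fold to 1.17-fold. Without control replicate 1 it was 0.026.

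Myl7 encodes the atrial regulatory light chain, an early marker of the whole heart tube and later of the atria. It read 9.70, 9.84 and 9.59 with FGF21 and 9.61, 9.61 and 9.63 in controls. The controls lay close together (SD 0.0132), while FGF21 replicate 2 stood highest and FGF21 replicate 3 lowest of all 6. The difference of 0.10 ± 0.07 (SE) was the largest of the sarcomeric members, with an adjusted p of limma of 0.639. It was 0.033 without FGF21 replicate 2.

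Isoform pairs were compared as differences of log2 values within an array, which cancel any shift common to that array. They show unequal change between 2 genes and say nothing of which is more abundant. Myh6 minus Myh7 was 4.49, 4.20 and 4.67 with FGF21 and 4.72, 4.54 and 4.59 in controls. FGF21 replicates 1 and 2 lay below all controls and FGF21 replicate 3 within their range, so the groups overlapped. The mean differed by -0.16 between groups, towards Myh7, with an SD of 0.240 with FGF21 and 0.0936 in controls, by -0.032 without FGF21 replicate 2 and by -0.27 without FGF21 replicate 3.

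The light chain pairs set the atrial against the ventricular form. Myl7 minus Myl2, the regulatory pair, was 1.83, 2.02 and 1.70 with FGF21 and 1.73, 1.73 and 1.77 in controls, a mean difference of 0.11, or 0.024 without FGF21 replicate 2 and 0.18 without FGF21 replicate 3. Myl4 minus Myl3, the essential pair, was -1.98, -1.96 and -1.82 against -2.09, -1.93 and -1.98, a mean difference of 0.08, or 0.033 without FGF21 replicate 3 and 0.037 without control replicate 1. The groups overlapped in both pairs, and the FGF21 array farthest from the controls was replicate 2 in the regulatory and replicate 3 in the essential pair. With 3 arrays against 3, an exact permutation test could not go below 0.1, so these pairs are given as values.

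**Figure D2:**
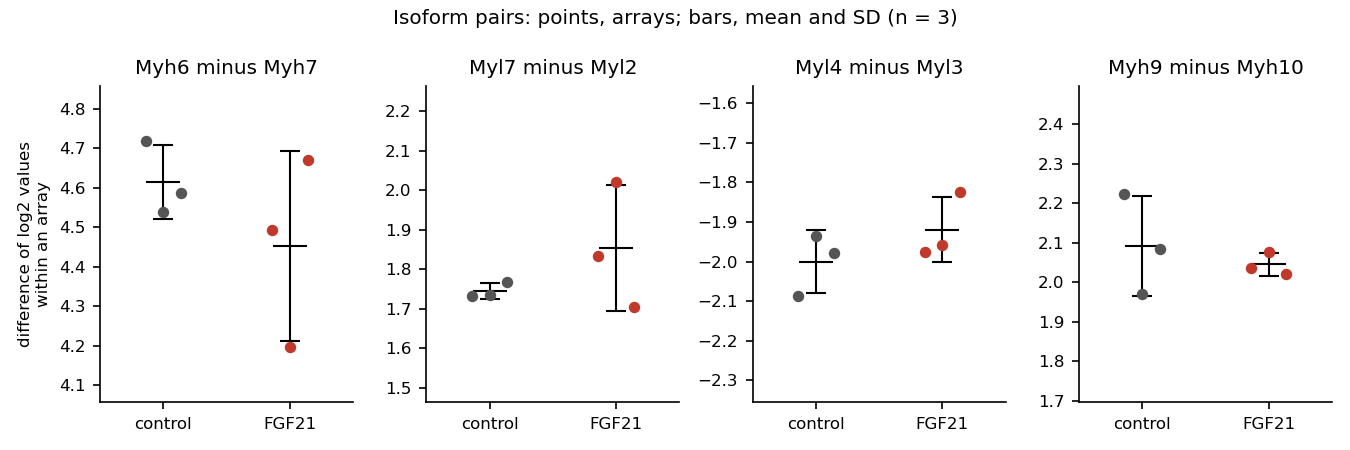
Difference of the log2 values of 2 myosin genes within each array, for 4 isoform pairs, with control arrays in grey and FGF21 arrays in red. Points are arrays, bars the mean and SD of 3, and each panel spans 0.8 log2 units; the groups overlap in all 4 pairs.

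The non-muscle members were the ones whose groups did not overlap. Myh9 encodes the heavy chain of non-muscle myosin IIA, which drives cortical tension and cell migration. It read 10.42, 10.52 and 10.39 with FGF21 and 10.38, 10.33 and 10.35 in controls. The lowest FGF21 array lay 0.0132 above the highest control. The difference of 0.09 ± 0.06 (SE) had an interval of 0.96-fold to 1.18-fold and an adjusted p of limma of 0.610.

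Myh10 encodes the heavy chain of non-muscle myosin IIB, which developing cardiomyocytes use for cell division. It read 8.38, 8.44 and 8.37 with FGF21 and 8.15, 8.36 and 8.26 in controls. The gap between the groups was 0.0075, and the controls (SD 0.103) spread wider than the FGF21 arrays (SD 0.0404). The difference was 0.14 ± 0.07 (SE), with an interval of 0.99-fold to 1.23-fold and an adjusted p of limma of 0.489. Without control replicate 1 it was 0.085. With quantile normalization applied again, the differences were 0.055 for Myh9 and 0.070 for Myh10, both groups overlapped, and Myl6 was then the only 1 of the 10 without overlap, against 15.2% of all genes. After median centring there were 4, Myl4 being added, against 18.9% of all genes. Both of these checks on overlap were added after the data were seen.

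The within-array difference Myh9 minus Myh10 was 2.04, 2.08 and 2.02 with FGF21 and 2.22, 1.97 and 2.08 in controls. The FGF21 arrays lay inside the span of the controls, with means of 2.05 and 2.09, and the sign of the mean difference turned, to 0.018, without control replicate 1.

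Myl6 encodes the essential light chain that non-muscle and smooth muscle myosins share. It stood at 6.39, 6.37 and 6.12 with FGF21 and 5.85, 5.69 and 5.72 in controls. All 3 FGF21 arrays lay above all 3 controls, by at least 0.27. The group means were 6.30 ± 0.152 (SD, n = 3) and 5.75 ± 0.0833, a 1.46-fold difference with an interval of 1.27 to 1.66. On the log2 scale this was 0.54 ± 0.09 (SE), larger in size than the difference of 99.8% of all genes. The adjusted p of limma was 0.0862, so Myl6 did not pass over all genes. Over the 14 alternatives that tested it the adjusted p ran from 0.0605 to 0.432, the latter with an ordinary equal-variance statistic. The difference itself stayed between 0.49 and 0.63 with any 1 array left out.

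The row for Myl6 was a dim one. Its mean level was above that of 45.9% of genes, all 3 FGF21 arrays were above the median of their array, and only 1 of the 3 controls was. Myl6 is known as a broadly and strongly expressed gene, and its transcripts have processed copies in the genome. How much of this signal comes from the gene itself was not tested. Myl6b, its neighbour on the chromosome and a related light chain, stood at 5.91, 5.90 and 5.66 with FGF21 and 5.89, 5.83 and 5.83 in controls. Its groups overlapped, with a log2 difference of -0.03 ± 0.08 (SE).

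The endothelial markers, whose list mean was lower with FGF21 in every array, moved with the same grouping as Myl6, Myh9 and Myh10. Kdr, a receptor for vascular endothelial growth factor, differed by -0.61 ± 0.17 (SE) and Cdh5, the endothelial cadherin, by -0.44 ± 0.13. Both ran opposite in sign to the non-muscle myosins. None of the 10 endothelial markers passed limma over all genes, 7 had an unadjusted p under 0.05 and lower values, against 5.11% of all genes in that direction, and their part in the myosin values was not tested. The FGF21 array with the lowest endothelial mean was replicate 1, which also had the highest Myl6 value, 6.39. Among controls the order differed: replicate 1 had the highest endothelial mean, 7.64, and also the highest Myl6 value, 5.85. Myh9 and Myh10 were highest in FGF21 replicate 2, at 10.52 and 8.44. Without FGF21 replicate 1 the difference of Myl6 was 0.49 on the log2 scale. FGF21 replicates 2 and 3 were also below all controls in endothelial mean, so this omission cannot separate endothelial level from FGF21.

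Of the other non-muscle and smooth muscle chains, Myl12b had the largest difference. It encodes a regulatory light chain of non-muscle myosin and read 8.18, 8.37 and 8.32 with FGF21 and 8.05, 8.08 and 8.08 in controls, without overlap. The log2 difference was 0.22 ± 0.07 (SE, limma adjusted p 0.288). Its near-identical relative Myl12a read 9.73, 9.86 and 9.64 against 9.73, 9.67 and 9.76, with overlap and a difference of 0.02 ± 0.07, and the array may not fully separate such close copies. Myl9, the regulatory chain of smooth muscle, read 10.91, 11.03 and 10.91 against 11.14, 11.07 and 10.92, a difference of -0.10 ± 0.08. Myh11, the smooth muscle heavy chain, read 6.85, 6.84 and 6.90 against 6.70, 6.68 and 6.74, without overlap and with a difference of 0.16 ± 0.06 (limma adjusted p 0.366). The non-muscle IIC heavy chain Myh14 overlapped, at 6.22, 6.25 and 6.29 against 6.09, 6.32 and 6.27.

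**Figure D3:**
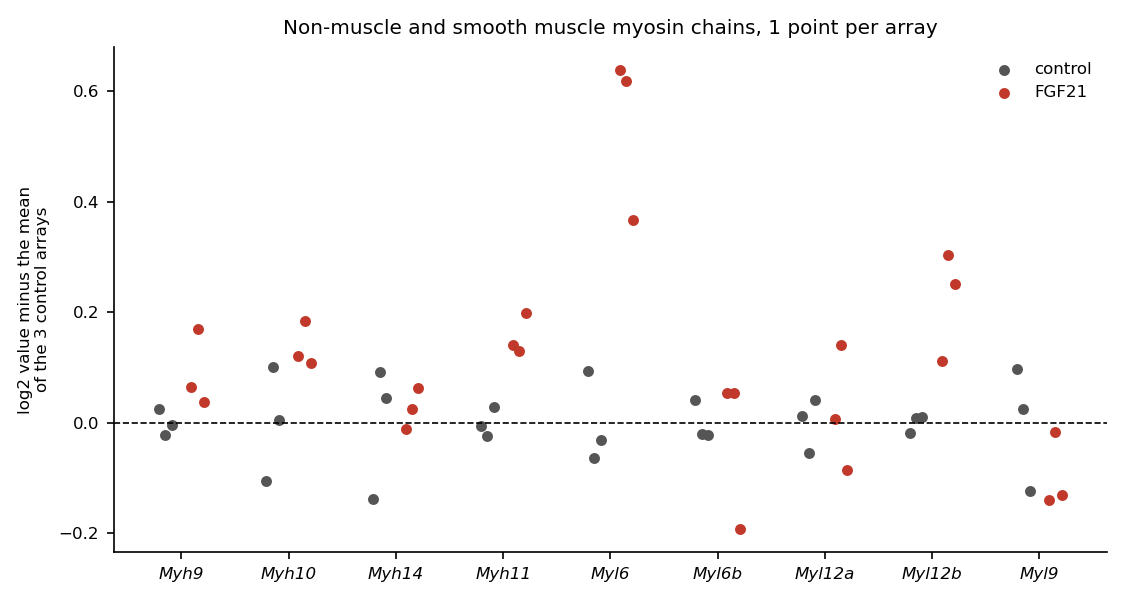
Log2 value of 9 non-muscle and smooth muscle myosin chains in each array, minus the mean of the 3 control arrays of that gene, with control arrays in grey and FGF21 arrays in red. FGF21 arrays lie above all controls in Myh9, Myh10, Myh11, Myl6 and Myl12b, and overlap them in Myh14, Myl6b, Myl12a and Myl9; over all genes 8.99% were apart with FGF21 higher, and Myh9 and Myh10 overlapped with quantile normalization applied again.

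Myosin chains typical of skeletal muscle made up most of the remaining family. Counts at an unadjusted p under 0.05 in this and the further gene lists are to be set against 11.7% of all genes in either direction and 6.59% with higher values. Of 9 other heavy chain genes, 5 were higher and 4 lower with FGF21, with a median of 0.03. The count at an unadjusted p under 0.05 was 1, Myh11. Myh2, the fast IIa form of skeletal muscle, differed by -0.22 ± 0.11 (SE), and Myh13, the form of the eye muscles, by -0.15 ± 0.07. Both rows were dim, below the array median in every array, and only 2 of the 9 genes were above every array median. Of 7 measured light chain genes of 8 written, 4 were higher and 3 lower, with a median of 0.01 and 1 at an unadjusted p under 0.05, Myl12b. Mylpf, the fast regulatory chain of skeletal muscle, differed by -0.16 ± 0.10, also in a dim row below the array median in every array.

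**Figure D4:**
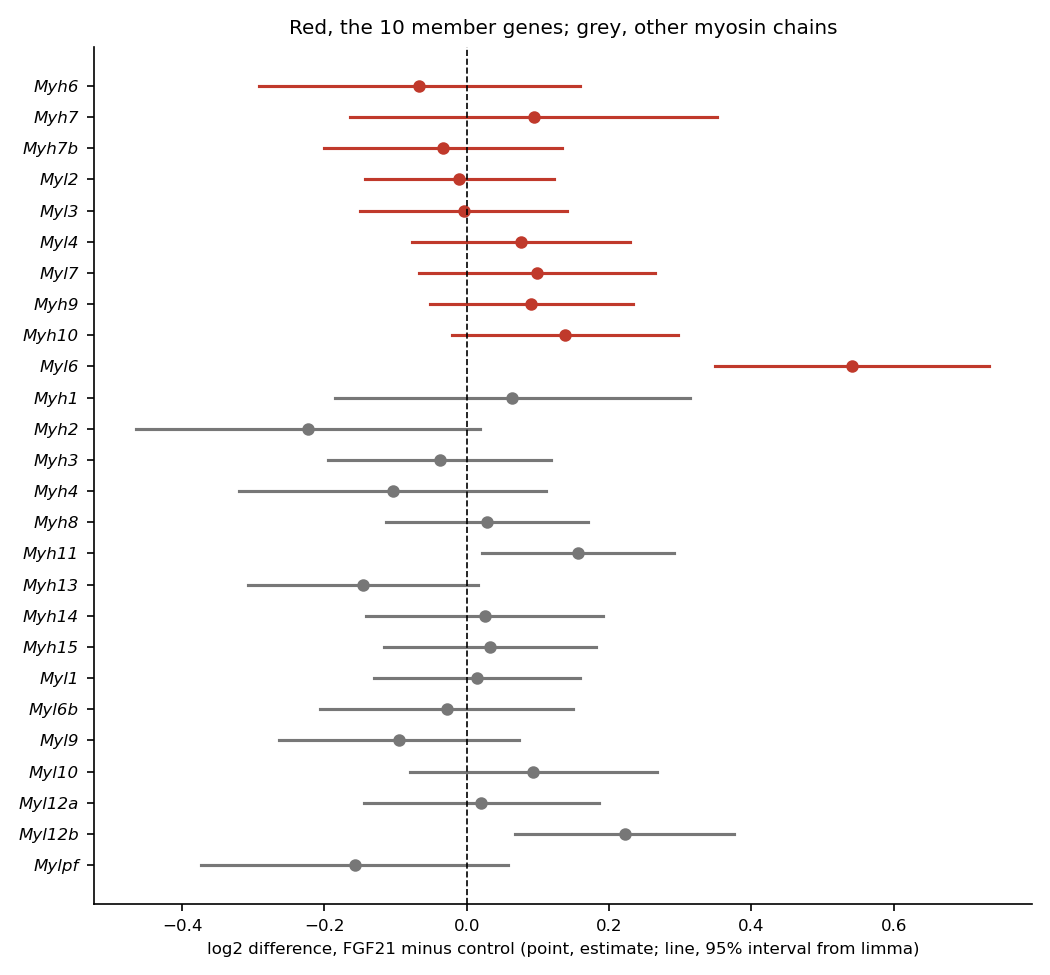
Log2 difference, FGF21 minus control, of the 10 member genes (red) and 16 other myosin chain genes (grey), with the estimate as a point and its 95% interval from limma as a line. The interval lies wholly above 0 for Myl6, Myl12b and Myh11, before any adjustment for the number of genes, and includes 0 for the other 23.

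Enzymes that switch myosin on and off by phosphorylation were followed as a further list. Of 16 measured genes of 17 written, 10 were higher and 6 lower, with a median log2 difference of 0.04, and 0 passed limma over all genes. At an unadjusted p under 0.05 there was 1, Cdc42bpa, a kinase that acts on myosin phosphatase, or 6.25% of the list against 11.7% of all genes. It read 8.19, 8.27 and 8.42 with FGF21 and 8.11, 8.09 and 8.04 in controls, a difference of 0.22 ± 0.07 (SE). Its relative Cdc42bpb differed by 0.11 ± 0.06, and Ppp1r14b, an inhibitor of myosin phosphatase, by 0.13 ± 0.09. Mylk3, the cardiac myosin light chain kinase, had a difference of -0.02 ± 0.08.

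Among partners of the thick filament and factors that fold or remove myosin, 9 of 19 measured genes were higher and 10 lower. The list had 22 genes as written, and its median difference was -0.01. Those at an unadjusted p under 0.05 numbered 2, both higher, or 10.5% of the list against 11.7% of all genes, and 0 passed limma over all genes. Fbxo32, the muscle ubiquitin ligase atrogin-1, read 8.31, 8.31 and 8.33 with FGF21 and 8.20, 8.12 and 8.08 in controls, a difference of 0.18 ± 0.06 (SE). The kinase gene Stk38 differed by 0.19 ± 0.08, with overlap. Unc45b, the chaperone that folds muscle myosin, differed by -0.16 ± 0.08, and Mybpc3, the cardiac myosin-binding protein C, by -0.01 ± 0.13.

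Regulators known for setting which myosin a heart cell makes gave 14 higher and 8 lower of 22 measured genes (23 written), with a median of 0.01. The list had 1 at an unadjusted p under 0.05, Srf, and 0 past limma over all genes. Srf encodes serum response factor, which acts through CArG boxes, and read 8.12, 8.33 and 8.07 with FGF21 and 7.92, 7.87 and 7.999 in controls. The groups did not overlap, and the difference was 0.24 ± 0.08 (SE, limma adjusted p 0.316). Dio2, which activates thyroid hormone, differed by -0.19 ± 0.10, and Nr2f2, a factor of atrial identity, by 0.09 ± 0.07. The Dio2 row was dim, below the array median in every array. Thra, the thyroid hormone receptor alpha that drives Myh6, had a difference of 0.00 ± 0.06.

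Likeness of pattern was measured as the root mean square difference between log2 values centred on each gene's mean over the 6 arrays, among 82 candidates from the members and the lists. The nearest to Myl6 was Srf, at 0.177, beside an SD of 0.316 for Myl6 itself. The measure includes the difference between the groups, and Srf had the largest rise with FGF21 among these candidates, 0.24. Whether Srf acts on Myl6 was not tested. The nearest to Myh6 was Mylk3, at 0.0629, and to Myh7 Smyd2, a lysine methyltransferase, at 0.0833. Myh9 was nearest to Tead1, a factor that binds M-CAT motifs, at 0.0353, with Nkx2-5 next at 0.0376. No window of Myh9 held the M-CAT letters. Myh10 was nearest to Myl4, at 0.0538. Myl2 was nearest to Thrb, at 0.0237, which is about its own SD, so flat genes pair with flat genes by this measure.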

How the data were processed

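RNA of 6 samples, 3 with FGF21 and 3 without, was measured on Affymetrix Mouse Gene arrays. The authors deposited log2 values from robust multi-array averaging (RMA); the submitters' processing notes name R 3.2.2 and affy. RMA equalises the arrays and so can mask a change shared by every gene, and it shrinks differences in dim rows. Chip definition and genome build: not given in the sources used here.

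The table had 41345 rows, of which 23521 had 1 gene symbol in the platform annotation, 1814 several and 16010 are not in it. The row of highest mean was kept per gene, leaving 22180 genes; each myosin member had 1 row, and all 10 matched the RefSeq table by gene number. The number of arrays limits the precision. No 2 arrays held identical values (0 pairs).

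Differences are FGF21 minus control from a two-sided test without covariates (lmFit, then eBayes; limma 3.58.1, R 4.3.3), adjusted by Benjamini-Hochberg over all genes at 0.05, with 95% intervals. The fit was run on simulated data with known changes and independent noise, where only the mean estimated change was checked. The members and lists were chosen with earlier results of these data known. All members were described, and the 3 genes of smallest p of each further list were named; other names were chosen after their values were seen. Alternatives were a block on replicate number, omission of each array, the mean of rows, a filter on dim genes, all rows, quantile normalization applied again, median centring, a trend and robust prior, an ordinary equal-variance statistic and array weights. Promoter and microRNA sequences are from RefSeq, and motifs were chosen with the sequences known.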

Additional observations from a re-analysis of the deposited data

How the results depend on the processing

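The count of members past the adjusted threshold was 0 in all 15 alternatives run. Myl6, the member nearest the threshold, was tested in 14 of them, since leaving out dim genes removed it. Myl6, Myh9, Myh10, Myl4 and Myl7 kept a positive difference in each in which they were tested. Over all genes the adjusted count of 0 was 2 with the mean of a gene's rows, 58 with the dimmer genes (those under the median level) left out, 5 with quantile normalization applied again, 12 after median centring, 16 with a trended, robust prior, 2 with array weights, and 0 to 2 with an array left out. The unadjusted count of 2594 genes was 1700 with dim genes left out, where fewer were tested, and 1710 to 3028 with an array left out. Of those genes, 56.3% were higher with FGF21, and 79.9% after median centring. Members at an unadjusted p under 0.05, 1 in the reported setting, were 0 with dim genes left out, since Myl6 itself was then not tested, 2 after median centring and 1 to 2 with an array left out. Small differences turned sign: Myh7b to 0.0029, Myl2 to 0.026 and Myl3 to 0.032 after median centring. With an array left out, differences ran from -0.14 to 0.051 for Myh6, -0.0088 to 0.22 for Myh7, -0.083 to 0.022 for Myh7b, -0.025 to 0.0089 for Myl2 and -0.044 to 0.035 for Myl3. The cause was not tested. Counts at an unadjusted p under 0.05 with an array left out were 0 to 2 for other heavy chains, 1 to 2 for other light chains, 0 to 2 for phosphorylation genes, 1 to 3 for thick filament partners and 0 to 3 for regulators. Phosphorylation genes had 2 with the mean of a gene's rows and 0 with quantile normalization applied again, and thick filament partners 1 with the latter. No member had a second row, so another choice of row gave no value. Same-numbered arrays deviated together by correlations of 0.103, 0.158 and 0.0065, against -0.160 to 0.042 for arrays of different numbers. By deviations 4 of 6 arrays correlated best with their own number. Whether a number marks a shared litter or culture is not given in the labels and was not tested. With the replicate number as a block, Myl6 had a limma adjusted p of 0.0605, 0 genes passed over all genes and 0 members passed. Dim rows such as Myl6 and the microRNA genes limit what could be seen.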

Other observations

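Several genes of the cardiomyocyte sarcomere and of calcium release shared the high value that Myh6 had in control replicate 1. Ttn, the giant spring of the sarcomere, read 10.84 in that array, 10.37 and 10.39 in the other controls and 10.27, 10.28 and 10.39 with FGF21. Ryr2, the calcium release channel, read 11.17 there and 10.71 to 10.82 in the other 5 arrays. Mybpc3 read 10.64 there and 10.12 to 10.40 elsewhere, and the M-band gene Myom1 10.15 there and 9.73 to 9.81 elsewhere. Of the 10 cardiomyocyte markers, 6 were highest in control replicate 1, as were 7 of the 19 thick filament partners and 6 of the 10 endothelial markers, but only 1 of the 10 myosin members, Myh6. Tnnt2, cardiac troponin T, was not among them, at 13.15 in that array and 13.09 to 13.17 in the others. These genes were picked after their values were seen.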
